A study of Mus musculus with 8 samples.

Results

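Cytochrome P450 genes encode heme-containing monooxygenases, and their transcripts were examined in 4 subsets of sorted medullary thymic epithelial cells (mTECs) of the mouse. Members were the protein-coding genes whose symbol is Cyp followed by digits, letters and digits, so that the first digits give the family and the letters the subfamily. The annotation holds 94 such genes in 39 subfamilies. Of these, 84 genes in 37 subfamilies have a row among the 25466 genes of the deposited table. The other 10 members (Cyp2a22, Cyp2c38, Cyp2c54, Cyp2c66, Cyp2c67, Cyp2c69, Cyp2j7, Cyp2t4, Cyp4a32 and Cyp7a1) were not analysed here. Membership was set by name and not by a measured value. Earlier results of these data were known when the members and the gene lists below were chosen.

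The cells came from the thymus of wild-type BL6N6 mice, used at 4 to 6 weeks of age, with no transgene and no treatment in any group. CD45neg Epcampos CDR1neg cells were sorted by 2 surface proteins into Tspan8neg MHCIIlow, Tspan8neg MHCIIhigh, Tspan8pos MHCIIhigh and Tspan8pos MHCIIlow mTECs. Tspan8 is a tetraspanin that the study uses as an example of a tissue-restricted antigen (TRA), and the MHCII level was used to address maturation, with both early and late cells in the MHCIIlow gate. Each subset has 2 biological replicates, which limits the precision of every value, and p-values measure only the spread between these samples. In bulk RNA of a sorted subset, fewer cells of a type and less RNA per cell cannot be told apart.

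P450 enzymes bind molecular oxygen at a heme iron and insert 1 oxygen atom into a substrate, with electrons from cytochrome P450 reductase (Por) in the endoplasmic reticulum or from ferredoxin in mitochondria. Families 1 to 3 act largely on drugs, toxins and odorants, and many of their genes are known from the liver, the gut or the olfactory mucosa. Family 4 hydroxylates fatty acids and eicosanoids, and the remaining families make or break down steroids, bile acids, vitamin D and retinoic acid. In mTECs, the chromatin regulator Aire and other factors drive the ectopic transcription of genes that otherwise mark single organs, and some mTECs take on the transcriptional programme of an outside tissue such as skin, gut or tuft epithelium (mimetic cells).

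Library totals lay between 1941518 and 7783841 counts, with a median of 4857084 and the lowest in Tspan8pos MHCIIlow replicate 1, where 3 counts amount to 1.55 counts per 1000000 (CPM). The sort markers followed the gates. Tspan8 lay between 325 and 374 CPM in the Tspan8pos libraries and between 3.76 and 15.8 CPM in the Tspan8neg libraries. H2-Aa was higher in the MHCIIhigh libraries of each Tspan8 level, but within each MHCII gate it was lower in Tspan8pos cells. It was at 1417 and 1260 CPM in Tspan8neg MHCIIlow against 361 and 343 in Tspan8pos MHCIIlow. At MHCIIhigh it was at 4862 and 5404 CPM in Tspan8neg against 2013 and 2134 in Tspan8pos cells. Epcam was at 396 to 1013 CPM throughout, and Aire at 2644 to 2808 CPM in Tspan8neg MHCIIhigh against 13.9 to 516 CPM elsewhere. The sums of T and B cell markers were highest in Tspan8neg MHCIIlow, where 9 thymocyte genes summed to 443 and 1281 CPM and 5 B cell genes to 497 and 907 CPM, against 70.1 to 201 CPM and 36.6 to 145 CPM in the other libraries. Most of the B cell sum there was Ighm, at 474.5 and 851.6 CPM, while Cd79b was highest in Tspan8pos MHCIIlow (38.1 and 29.6 CPM). The sum of 8 macrophage and dendritic cell genes was higher in the MHCIIhigh libraries, at 399 to 497 CPM, than in the MHCIIlow libraries, at 52.9 to 166 CPM. Lyz2 gave most of the sum in the MHCIIhigh libraries, at 225.5 to 353.3 CPM. Like Lyz2, Csf1r, Adgre1, C1qa and C1qb were higher in every MHCIIhigh than in every MHCIIlow library. Itgam was instead highest in the Tspan8pos libraries (85 to 156.7 CPM), and Itgax in Tspan8neg MHCIIlow (9.55 and 27.7 CPM).

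The P450 members together were several-fold more abundant in Tspan8pos than in Tspan8neg mTECs at either MHCII level. Their summed level was 375 and 531 CPM in the 2 libraries of Tspan8neg MHCIIlow and 773 and 885 CPM in those of Tspan8neg MHCIIhigh. In Tspan8pos MHCIIhigh it was 4830 and 4595 CPM, and in Tspan8pos MHCIIlow 2845 and 3230 CPM. The 4 subsets did not overlap. The means were 453 ± 110, 829 ± 79.8, 4713 ± 166 and 3037 ± 272 CPM (SD, n = 2), which is a ratio of 6.7 between the Tspan8 levels in MHCIIlow and of 5.69 in MHCIIhigh mTECs. Much of this sum came from Cyp2a5, Cyp2b19, Cyp2f2 and Cyp2g1, which made up 82.8% to 85.5% of it in the Tspan8pos libraries and 39.3% to 54.9% in the Tspan8neg libraries. These 4 were singled out after their values were seen. Without them the sums were 210 and 240 CPM in Tspan8neg MHCIIlow, 469 and 517 in Tspan8neg MHCIIhigh, 702 and 774 in Tspan8pos MHCIIhigh and 490 and 502 in Tspan8pos MHCIIlow. Tspan8pos MHCIIhigh then still stood highest and Tspan8neg MHCIIlow lowest, while both Tspan8pos MHCIIlow libraries lay within the range of Tspan8neg MHCIIhigh.

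**Figure D1:**
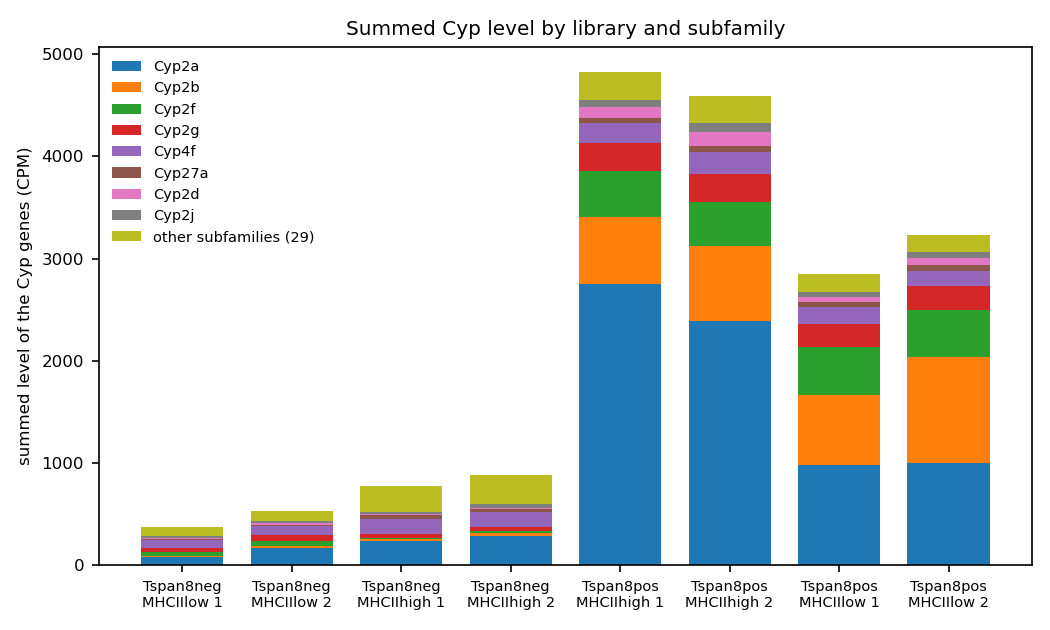
Summed level of the P450 members in each of the 8 libraries, in CPM on a linear axis from 0, with each bar split by subfamily and 2 bars (replicates) for each subset. The Tspan8pos bars reach 2845 to 4830 CPM and the Tspan8neg bars 375 to 885 CPM, and the subfamilies Cyp2a, Cyp2b, Cyp2f and Cyp2g fill most of the Tspan8pos bars.

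The subset with the largest number of detected members was a different one from the subset with the largest sum. At least 4 counts were found for 26 and 35 of the 84 members in Tspan8neg MHCIIlow, for 61 and 70 in Tspan8neg MHCIIhigh, for 55 and 47 in Tspan8pos MHCIIhigh and for 34 and 47 in Tspan8pos MHCIIlow. With every library thinned to 1941518 counts these numbers were 24 and 27, 44 and 46, 43 and 42, and 34 and 35. At equal depth and this limit both MHCIIhigh subsets held 42 to 46 detected members, while Tspan8neg MHCIIlow held fewest. Tspan8neg MHCIIhigh held slightly more than Tspan8pos MHCIIhigh, and this gap was wider at a lower limit. At least 1 count in the thinned libraries was found for 71 and 70 members in Tspan8neg MHCIIhigh and for 63 and 59 in Tspan8pos MHCIIhigh. The numbers were 37 and 40 in Tspan8neg MHCIIlow and 48 and 49 in Tspan8pos MHCIIlow. Among all protein-coding genes of the table, thinned, 80.1% and 81.9% reached 4 counts in Tspan8neg MHCIIhigh, 74.5% and 75.5% in Tspan8pos MHCIIhigh, and 71.3% to 75.3% in the MHCIIlow libraries. By mean CPM, 34 of the 84 members had their highest level in Tspan8neg MHCIIhigh, 30 in Tspan8pos MHCIIhigh, 14 in Tspan8pos MHCIIlow and 6 in Tspan8neg MHCIIlow. Of the 34 that peaked in Tspan8neg MHCIIhigh, 20 were too rare to be tested. Of the members that were tested, 26.4% peaked in Tspan8neg MHCIIhigh, where 31.8% of all tested genes did. The shares were 45.3% and 13.7% in Tspan8pos MHCIIhigh, 18.9% and 19.8% in Tspan8pos MHCIIlow, and 9.43% and 34.7% in Tspan8neg MHCIIlow.

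Differences between subsets were tested with edgeR's quasi-likelihood test over the 17006 genes that passed a filter on low counts, and a gene was called at a Benjamini-Hochberg adjusted p under 0.01 where the log2 fold change was also at least 1 in size. Of the 84 members, 53 from 34 subfamilies passed the filter. The other 31 had 3 to 46 counts in all 8 libraries together, with a median of 10, and reached at most 3.7 CPM in a library. Of these 31, 29 had counts in Tspan8neg MHCIIhigh and 22 were at 0 in Tspan8neg MHCIIlow. The former libraries were deeper, with totals of 4552711 and 7306157 counts against 3456419 and 3928879 in Tspan8neg MHCIIlow. The same numbers were not determined for other genes that failed the filter or for these 31 at equal depth. Because a gene that is high in 1 subset passes the filter more easily, the counts of called members below are descriptions of the 53 that passed.

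In MHCIIlow mTECs, 18 members were higher and 1 lower in Tspan8pos than in Tspan8neg cells, which is 35.8% of the 53 where 21.4% of all tested genes were called. Leaving out Tspan8pos MHCIIlow replicate 2 lowered this count from 19 to 12. In MHCIIhigh mTECs, 15 members were higher and 2 lower in Tspan8pos cells, or 32.1% against 18.5% of all tested genes, and 11 remained called without Tspan8neg MHCIIhigh replicate 1. The median log2 fold change of the 53 members was 1.48 in MHCIIlow and 0.74 in MHCIIhigh mTECs, and that of all tested genes was -0.03 in each. With the 12 members that had no count in 1 of the 2 MHCIIlow subsets set to the bound that 3 counts allow, the first of these medians was 1.33.

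Between the MHCII levels, 17 members were higher and 2 lower in Tspan8neg MHCIIhigh than in Tspan8neg MHCIIlow mTECs, or 35.8% against 22.7% of all tested genes. This count depended on single libraries, with 7 members called without Tspan8neg MHCIIhigh replicate 2 and 12 without Tspan8neg MHCIIlow replicate 1. Within Tspan8pos mTECs, 5 members were higher and 1 lower in MHCIIhigh cells, or 11.3% against 7.21% of all tested genes. Here 1 member was called without replicate 1 or without replicate 2 of Tspan8pos MHCIIhigh or without replicate 1 of Tspan8pos MHCIIlow, none without replicate 2 of Tspan8pos MHCIIlow, and 11 and 10 without replicate 1 and replicate 2 of Tspan8neg MHCIIlow. The medians were 1.67 (1.64 with 9 members at their bound) and 0.66 (0.64 with 5 members at their bound), against -0.04 and 0.01 over all tested genes. In all, 34 members were called in at least 1 of the 4 contrasts and 19 in none. The share of all tested genes called in at least 1 contrast was not determined. Of the 34 members, 21 had a mean of at least 5 CPM over the 8 libraries. The summed level of macrophage and dendritic cell markers also was higher in the MHCIIhigh libraries, and the part of such cells in the MHCII contrasts was not tested. At an unadjusted p under 0.05 the numbers were 34, 38, 35 and 22 of the 53 in the 4 contrasts. The shares of all tested genes at that limit were not determined.

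**Figure D2:**
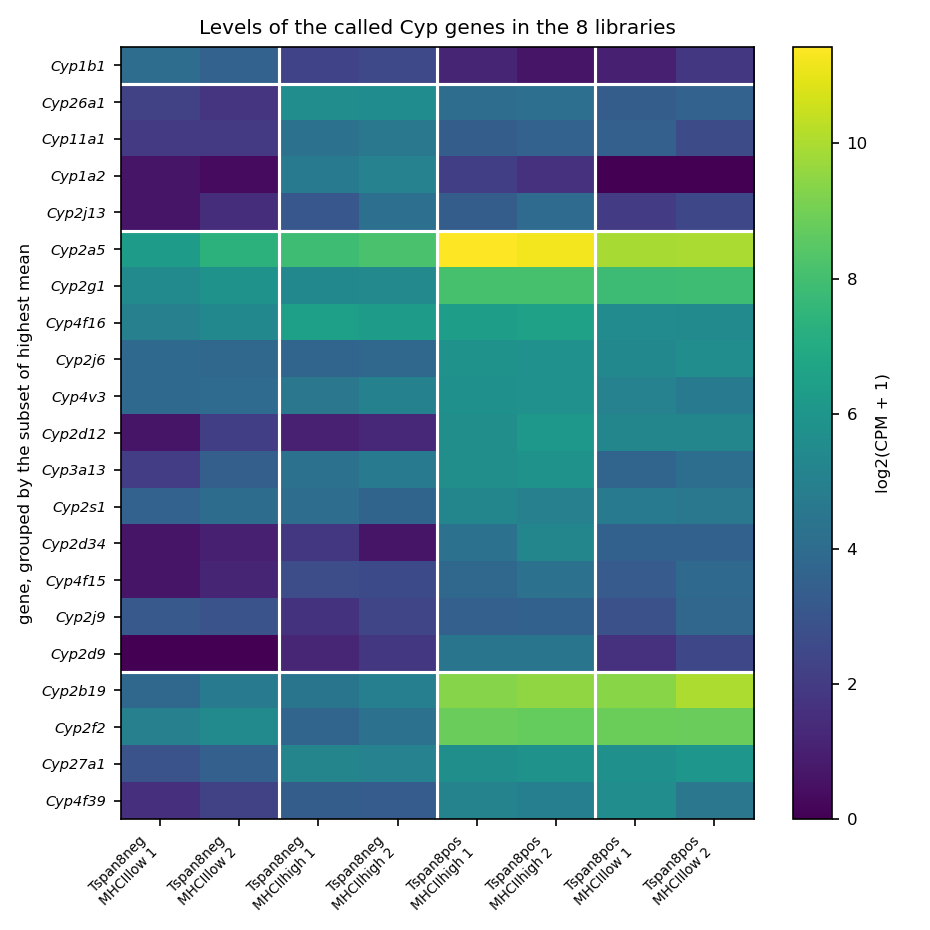
Level of the 21 members called in at least 1 of the 4 contrasts with a mean of at least 5 CPM, as log2(CPM + 1) on a colour scale, with a row for each member and a column for each of the 8 libraries; white lines part the subsets and group the members by the subset of highest mean. A group of 12 members has its highest mean in Tspan8pos MHCIIhigh, 4 have it in Tspan8pos MHCIIlow, 4 in Tspan8neg MHCIIhigh and 1 (Cyp1b1) in Tspan8neg MHCIIlow.

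Taken by subfamily, with the counts of its members summed before the test, 13 of 34 subfamilies were higher and 1 was lower in Tspan8pos cells at MHCIIlow, and 9 were higher and 2 lower at MHCIIhigh. That was 41.2% and 32.4% of the 34, against 21.4% and 18.5% of all genes tested singly. The subfamilies Cyp2a, Cyp2b, Cyp2d, Cyp2f, Cyp2g, Cyp2j, Cyp2s, Cyp3a and Cyp4v were higher in Tspan8pos cells in both comparisons, with log2 fold changes from 1.02 (Cyp2s) to 5.63 (Cyp2b) at MHCIIlow and from 1.16 (Cyp4v) to 5.01 (Cyp2f) at MHCIIhigh. All of these but Cyp4v belong to families 2 and 3. Cyp1a was lower in Tspan8pos cells at MHCIIhigh (log2 fold change -3.06) and Cyp1b at MHCIIlow (-2.51). Between the MHCII levels of Tspan8neg mTECs, 11 subfamilies were higher and 1 (Cyp2f) lower in MHCIIhigh cells, of which Cyp1a, Cyp11a, Cyp17a, Cyp24a, Cyp26a, Cyp26c, Cyp27a and Cyp27b belong to the Ahr-inducible, steroid, vitamin D, retinoid and sterol groups. Of these 12 subfamilies, 7 were called without Tspan8neg MHCIIlow replicate 1, 5 without Tspan8neg MHCIIhigh replicate 2 and 7 without Tspan8pos MHCIIlow replicate 1. The 12 called subfamilies were 35.3% of the 34, against 22.7% of all genes tested singly. The Cyp3a subfamily was the only one with a call in the same direction in all 4 contrasts besides Cyp2a.

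The 4 members with the highest level per kb of exon length in both Tspan8pos subsets lay in 1 cluster on chromosome 7. The cluster from Cyp2s1 to Cyp2t4 (chr7:25802475-27158668, GRCm38) has 13 annotated members, of which 11 are in the table and 6 were tested. Of these 6, 5 were higher in Tspan8pos cells at both MHCII levels. Of all tested genes, 12.1% were called higher in Tspan8pos cells at MHCIIlow and 11% at MHCIIhigh. The share called higher at both levels was not determined. Cyp2a5, the coumarin hydroxylase that also oxidises nicotine and is known from the liver and the olfactory mucosa, lies at chr7:26835305-26843548 on the plus strand. Its level was 79.8 and 164 CPM in Tspan8neg MHCIIlow, 232 and 281 in Tspan8neg MHCIIhigh, 2755 and 2393 in Tspan8pos MHCIIhigh and 976 and 994 in Tspan8pos MHCIIlow. The 4 subsets did not overlap and Tspan8pos MHCIIhigh was highest. The log2 fold change of Tspan8pos against Tspan8neg cells was 3.19 ± 0.26 (SE) at MHCIIlow with an edgeR adjusted p of 3.78e-06, and 3.51 ± 0.26 at MHCIIhigh with an adjusted p of 2.17e-06. Cyp2a5 was called in all 4 contrasts, and the differences between MHCII levels were smaller, at 1.07 ± 0.24 in Tspan8neg (adjusted p = 0.00476) and 1.39 ± 0.24 in Tspan8pos mTECs (adjusted p = 0.00237). Each of these MHCII calls was lost in 4 of the 8 fits that left out 1 library, with adjusted p up to 0.0287 and 0.0387.

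On the scale of CPM per kb, which allows a comparison between genes, Cyp2a5 stood at 1241 in Tspan8pos MHCIIhigh, rank 14 among the 18506 protein-coding genes of the table. It stood at 475 in Tspan8pos MHCIIlow (rank 61), at 124 in Tspan8neg MHCIIhigh (rank 263) and at 58.7 in Tspan8neg MHCIIlow (rank 634), and it was the first of the members in every subset. In Tspan8neg MHCIIhigh the next were Cyp4f16 (26.8 CPM per kb, rank 1693) and Cyp26a1 (23.4 CPM per kb, rank 1975), which lie on other chromosomes. Of the read-length windows of Cyp2a5, 33.9% also occur in another gene, mainly Cyp2a4, so that counts could be split between them. Cyp2a4 itself had 10 counts in all, and the sum of the Cyp2a subfamily gave a log2 fold change of 3.19 at MHCIIlow, equal to that of Cyp2a5 alone.

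Cyp2b19 (chr7:26757142-26772630, plus strand), an arachidonic acid epoxygenase of keratinocytes, was at 13 and 26 CPM in Tspan8neg MHCIIlow and 20.6 and 29.8 in Tspan8neg MHCIIhigh. In Tspan8pos MHCIIhigh it was at 646 and 730 CPM and in Tspan8pos MHCIIlow at 682 and 1045 CPM. All Tspan8pos libraries lay far above all Tspan8neg libraries, while the MHCII levels overlapped in Tspan8neg and in Tspan8pos cells. The log2 fold changes were 5.63 ± 0.32 (adjusted p = 3.15e-07) and 4.93 ± 0.30 (adjusted p = 6.18e-07), the largest among the 4 abundant members of the cluster at MHCIIlow.

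Cyp2f2 (chr7:27119909-27133660, plus strand), known from the club cells of the airway, was at 30.7 and 43.5 CPM in Tspan8neg MHCIIlow and 12.3 and 17.9 in Tspan8neg MHCIIhigh, against 454 and 423 in Tspan8pos MHCIIhigh and 469 and 457 in Tspan8pos MHCIIlow. Tspan8neg MHCIIhigh was the lowest subset without overlap. The log2 fold change between Tspan8 levels was 3.81 ± 0.20 at MHCIIlow and 5.01 ± 0.21 at MHCIIhigh (edgeR adjusted p = 2.18e-07 and 1.75e-07). Within Tspan8neg mTECs Cyp2f2 fell by 1.28 ± 0.21 on the log2 scale from MHCIIlow to MHCIIhigh (adjusted p = 0.000554), a call lost in 1 of the 8 fits that left out a library, without Tspan8neg MHCIIhigh replicate 1 (adjusted p = 0.0106). Exons of Gm15883 overlap Cyp2f2 on the opposite strand and share 8.6% of its windows, and whether strand was used in counting is unsettled.

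Cyp2g1 (chr7:26808892-26821205, plus strand), an enzyme of the olfactory mucosa, was at 42 and 58.3 CPM in Tspan8neg MHCIIlow, 38.9 and 40.1 in Tspan8neg MHCIIhigh, 273 and 276 in Tspan8pos MHCIIhigh and 228 and 232 in Tspan8pos MHCIIlow. The levels of the 4 Tspan8pos libraries lay within 227 to 277 CPM. The log2 fold changes of 2.37 ± 0.16 and 2.97 ± 0.16 were called (adjusted p = 8.79e-07 and 2.96e-07). Cyp2s1 (chr7:25802475-25816913, minus strand), an epithelial member outside the liver, differed less, with 11 and 15.5 and then 16 and 12 CPM in the Tspan8neg subsets, MHCIIlow first, and 26.3 and 22.6 and then 37.2 and 30.6 CPM in the Tspan8pos subsets. Its log2 fold change was 1.02 ± 0.26 at MHCIIlow (adjusted p = 0.00793), a call lost in 7 of the 8 fits that left out a library, and 1.47 ± 0.23 at MHCIIhigh (adjusted p = 0.000561; 0.0179 without Tspan8neg MHCIIhigh replicate 2). The Tspan8 calls of Cyp2a5, Cyp2b19, Cyp2f2 and Cyp2g1 held in each of those 8 fits.

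The high level was not shared by the whole cluster. Cyp2b10, the sixth tested member, was called in none of the contrasts and reached at most 6.18 CPM. The 5 members that were not tested (Cyp2a4, Cyp2a12, Cyp2b9, Cyp2b13 and Cyp2b23) had 4 to 24 counts over all libraries. Cyp2b23, the neighbour of Cyp2b19, and Cyp2a4, the closest relative of Cyp2a5, had their highest mean in Tspan8neg MHCIIhigh.

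**Figure D3:**
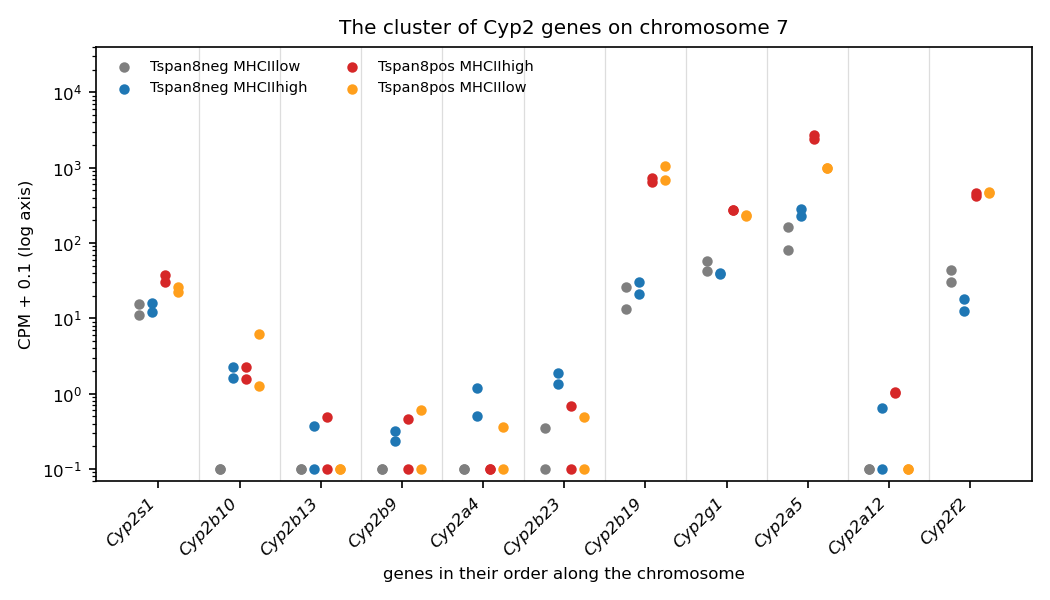
Level of the members of the chromosome 7 Cyp2 cluster in CPM on a log axis, in their order along the chromosome, with 1 point for each of the 8 libraries coloured by subset and 0.1 added to draw values of 0. Cyp2a5, Cyp2b19, Cyp2f2 and Cyp2g1 stand at 228 CPM or more in every Tspan8pos library, and 6 of their neighbours at 6.18 CPM or less in every library.

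The Cyp2d cluster on chromosome 15 (chr15:82370527-82794294) also held members that were higher in Tspan8pos cells. Its genes are relatives of the human drug-metabolising CYP2D6 enzyme. Of the 8 members 6 were tested, with 4 higher at MHCIIlow and 3 at MHCIIhigh. Of all tested genes, 12.1% and 11% were called higher in Tspan8pos cells at these levels. Cyp2d12 was at 0.579 and 3.31 CPM in Tspan8neg MHCIIlow, 1.1 and 1.51 in Tspan8neg MHCIIhigh, 49 and 68 in Tspan8pos MHCIIhigh and 37.1 and 36.9 in Tspan8pos MHCIIlow. All Tspan8pos libraries lay far above all Tspan8neg libraries. Its log2 fold changes were 4.35 ± 0.40 and 5.59 ± 0.38 (adjusted p = 9.67e-06 and 1.26e-06). Cyp2d34 was at 0.579 and 1.02 and 2.64 and 0.547 CPM in the Tspan8neg subsets and at 18.8 and 36.6 (MHCIIhigh) and 10.8 and 10.8 CPM (MHCIIlow) in the Tspan8pos subsets, with log2 fold changes of 3.86 ± 0.68 (adjusted p = 0.000986; 0.0119 without Tspan8pos MHCIIlow replicate 2) and 4.44 ± 0.54 (adjusted p = 8.34e-05).

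Cyp2d9, a testosterone hydroxylase of the male liver and kidney, had no count in Tspan8neg MHCIIlow. It was at 1.32 and 2.6 CPM in Tspan8neg MHCIIhigh, 20.4 and 20.7 in Tspan8pos MHCIIhigh and 2.06 and 4.62 in Tspan8pos MHCIIlow, so that Tspan8pos MHCIIhigh stood apart from the rest. The rise from Tspan8neg to Tspan8pos was at least 10.1-fold at MHCIIlow, against a floor of 3 counts over the group (adjusted p = 0.000802; 0.0188 without Tspan8pos MHCIIlow replicate 2), and the log2 fold change at MHCIIhigh was 3.49 ± 0.44 (adjusted p = 0.000159). Cyp2d9 was also called higher in MHCIIhigh cells, at least 5.19-fold in Tspan8neg (adjusted p = 0.00399) and by 2.44 ± 0.42 on the log2 scale in Tspan8pos mTECs (adjusted p = 0.00324), and those calls were lost in 3 and 4 of the 8 fits without 1 library. Reads of 54 bases cannot place 19.8% of its windows uniquely. Cyp2d22 ran against its neighbours, with 8.97 and 7.38 CPM in Tspan8neg MHCIIlow and 0.659 and 0.821 in Tspan8neg MHCIIhigh (log2 fold change -3.41 ± 0.56, adjusted p = 0.000606; 0.0115 without Tspan8neg MHCIIhigh replicate 2). Cyp2d22 was picked out after its values were seen.

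The Cyp2j genes encode epoxygenases that turn arachidonic acid into epoxyeicosatrienoic acids. Of the 7 members of the Cyp2j cluster on chromosome 4 in the table, 3 were tested. Cyp2j6 was at 13.9 and 13.5 CPM in Tspan8neg MHCIIlow, 12.1 and 13.6 in Tspan8neg MHCIIhigh, 57.8 and 53.9 in Tspan8pos MHCIIhigh and 39.7 and 47.1 in Tspan8pos MHCIIlow. The MHCII levels overlapped in Tspan8neg mTECs, and all Tspan8pos libraries were higher (log2 fold change 1.85 ± 0.19 and 2.29 ± 0.18, adjusted p = 2.03e-05 and 3.1e-06). Cyp2j9 was called at MHCIIhigh, where it was at 2.2 and 4.24 CPM in Tspan8neg and 10.3 and 10.8 CPM in Tspan8pos cells (log2 fold change 1.84 ± 0.42, adjusted p = 0.00513). That call was lost in 4 of the 8 fits without 1 library (adjusted p up to 0.0656), and the MHCIIlow subsets were at 8.1 and 6.62 and 6.18 and 12.6 CPM. Cyp2j13 was instead higher in MHCIIhigh than in MHCIIlow cells of the Tspan8neg gate, at 7.69 and 17.1 against 0.579 and 1.78 CPM (log2 fold change 3.35 ± 0.58, adjusted p = 0.00092; 0.0102 without Tspan8neg MHCIIhigh replicate 2), with 9.39 and 14.7 CPM in Tspan8pos MHCIIhigh and 3.09 and 4.5 in Tspan8pos MHCIIlow.

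In contrast, the large Cyp2c cluster on chromosome 19, whose genes are among the main P450s of the liver, held mostly members close to the detection limit. Of its 14 annotated members 9 are in the table, and all but Cyp2c68 reached at most 2.21 CPM in a library and were not tested. Cyp2c68 was at 0 and 4.07 CPM in Tspan8neg MHCIIlow, 0.659 and 1.09 in Tspan8neg MHCIIhigh, 6.63 and 7.75 in Tspan8pos MHCIIhigh and 3.6 and 3.47 in Tspan8pos MHCIIlow. It was not called in any contrast, with a log2 fold change of 3.12 ± 0.85 between the Tspan8 levels at MHCIIhigh (adjusted p = 0.0134). The 4 Cyp4a members, fatty acid hydroxylases of liver and kidney, were not tested one by one and had no count in Tspan8neg MHCIIlow. Their sum was 2.2 and 3.15 CPM in Tspan8neg MHCIIhigh, 0.736 and 1.55 in Tspan8pos MHCIIhigh and 1.55 and 1.67 in Tspan8pos MHCIIlow. It was called higher than in Tspan8neg MHCIIlow both in Tspan8neg MHCIIhigh and in Tspan8pos MHCIIlow (edgeR adjusted p = 0.00387 and 0.00963). In Tspan8pos MHCIIlow the sum was 3 and 13 counts, all from Cyp4a29, which was at least 4.05-fold higher there than in Tspan8neg MHCIIlow.

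In the Cyp4f and Cyp4v subfamilies, which hydroxylate the far end of fatty acids and eicosanoids, the members split by contrast. Cyp4f39, the counterpart of human CYP4F22 that makes the long hydroxy fatty acids of skin acylceramides, was at 2.02 and 3.56 CPM in Tspan8neg MHCIIlow, 9.22 and 8.9 in Tspan8neg MHCIIhigh, 33.7 and 29.6 in Tspan8pos MHCIIhigh and 47.4 and 22.5 in Tspan8pos MHCIIlow. Both Tspan8pos subsets lay above both Tspan8neg subsets, and the Tspan8pos MHCIIlow libraries spanned the range of Tspan8pos MHCIIhigh. The log2 fold change was 3.70 ± 0.42 at MHCIIlow (adjusted p = 4.69e-05) and 1.99 ± 0.33 at MHCIIhigh (adjusted p = 0.000761), and the second was lost without either replicate of Tspan8neg MHCIIhigh (adjusted p = 0.0106 and 0.0153). Among 15 other enzymes of skin barrier lipids, such as the lipoxygenases Aloxe3 and Alox12b, the ceramide synthase Cers3 and Dgat2, all 15 were higher in Tspan8pos cells at both MHCII levels, with a median log2 fold change of 3.06 and 2.17. At MHCIIlow and MHCIIhigh the median of all tested genes was -0.03, and 21.4% and 18.5% of them were called.

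Cyp4f15 was at 0.579 and 1.27 CPM in Tspan8neg MHCIIlow, 5.49 and 4.93 in Tspan8neg MHCIIhigh, 13.6 and 18.6 in Tspan8pos MHCIIhigh and 8.76 and 14.1 in Tspan8pos MHCIIlow. Tspan8neg MHCIIlow was lowest, Tspan8neg MHCIIhigh came next and the Tspan8pos subsets overlapped each other. The log2 fold changes were 3.80 ± 0.48 at MHCIIlow (adjusted p = 9.83e-05), 1.81 ± 0.34 at MHCIIhigh (adjusted p = 0.00177) and 2.42 ± 0.51 between the MHCII levels of Tspan8neg cells (adjusted p = 0.00308), and the latter 2 were each lost in 3 of the 8 fits without 1 library. Cyp4f16, the most abundant Cyp4f gene, moved with MHCII and not past the limits with Tspan8. It was at 30.7 and 38.9 CPM in Tspan8neg MHCIIlow, 86.3 and 78.4 in Tspan8neg MHCIIhigh, 80.8 and 92.4 in Tspan8pos MHCIIhigh and 44.8 and 43.2 in Tspan8pos MHCIIlow. Every MHCIIhigh library was above every MHCIIlow library, with log2 fold changes of 1.23 ± 0.16 in Tspan8neg (adjusted p = 0.00011) and 0.98 ± 0.15 in Tspan8pos mTECs (adjusted p = 0.00131, just under the limit of 1 on the fold change). The windows of Cyp4f16 are shared with other genes at 15.9%, mostly with Cyp4f37. Cyp4v3, a fatty acid hydroxylase whose human counterpart is mutated in a crystalline retinal dystrophy, was at 14.2 and 14.8 and 22 and 31.5 CPM in Tspan8neg MHCIIlow and MHCIIhigh and at 32.5 and 24.8 and 52.5 and 53.9 CPM in Tspan8pos MHCIIlow and MHCIIhigh, with log2 fold changes of 1.11 ± 0.23 and 1.16 ± 0.20 (adjusted p = 0.00306 and 0.000944). The first was lost without Tspan8pos MHCIIlow replicate 1 (adjusted p = 0.0217) and the second without Tspan8neg MHCIIhigh replicate 1 (adjusted p = 0.0259).

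In the Cyp3a subfamily, the enzymes of drug and steroid oxidation in liver and gut, Cyp3a13 carried most of the counts. It was at 3.18 and 9.93 CPM in Tspan8neg MHCIIlow, 18 and 24.4 in Tspan8neg MHCIIhigh, 49.5 and 56.4 in Tspan8pos MHCIIhigh and 12.4 and 16.4 in Tspan8pos MHCIIlow. Tspan8pos MHCIIhigh was highest without overlap. It exceeded Tspan8neg MHCIIhigh by 1.49 ± 0.29 (adjusted p = 0.00214) and Tspan8pos MHCIIlow by 1.82 ± 0.31 (adjusted p = 0.00236) on the log2 scale, and Tspan8neg MHCIIhigh exceeded Tspan8neg MHCIIlow by 1.67 ± 0.36 (adjusted p = 0.00342). Leaving out single libraries ended these calls in 4, 4 and 1 of 8 fits, with adjusted p up to 0.0416, 0.0342 and 0.0285. The other Cyp3a members, in a cluster on chromosome 5, were rare.

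Of the 13 called members with a mean below 5 CPM, Cyp2d10, Cyp2w1, Cyp3a16, Cyp3a25, Cyp3a57 and Cyp4f14 were not placed in one of the metabolic groups below and were picked out after their values were seen. The calls of all but Cyp4f14 were lost in 1 to 6 of the 8 fits that left out a library. Cyp3a25 was at 0 and 0.509 CPM in Tspan8neg MHCIIlow, 0.879 and 1.64 in Tspan8neg MHCIIhigh, 11.8 and 8.91 in Tspan8pos MHCIIhigh and 3.6 and 4.24 in Tspan8pos MHCIIlow, with a ratio of 15.2 between the Tspan8 levels at MHCIIlow (95% counting interval 3.94 to 130) and a log2 fold change of 3.13 ± 0.53 at MHCIIhigh (adjusted p = 0.00261 and 0.00082). The first was lost without Tspan8pos MHCIIlow replicate 2 (adjusted p = 0.0314), and the second without replicate 1 of Tspan8neg MHCIIhigh (0.0165) or of Tspan8pos MHCIIhigh (0.0132). Of its windows, 23.6% are shared with other genes, mainly Cyp3a59. Cyp2d10 and Cyp3a57 had no count in Tspan8neg MHCIIlow and were at least 7.09-fold and 9.11-fold higher in Tspan8pos MHCIIlow, with adjusted p of 0.0765 and 0.0541 without Tspan8pos MHCIIlow replicate 2, and 0.0124 for Cyp2d10 without Tspan8neg MHCIIlow replicate 2. Cyp3a16 and Cyp4f14 were called between the MHCII levels of Tspan8neg cells, where Cyp4f14 had 84 counts in MHCIIhigh and 1 in MHCIIlow, and Cyp2w1 was called between those of Tspan8pos cells, with 55 counts in MHCIIhigh and 3 in MHCIIlow. The call of Cyp3a16 was lost without replicate 2 of Tspan8neg MHCIIlow or either replicate of Tspan8neg MHCIIhigh (adjusted p up to 0.0301), and that of Cyp2w1 in each of the 6 fits that left out a library outside Tspan8neg MHCIIlow (adjusted p up to 0.0838).

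The 19 tested members without a call in any of the 4 contrasts ranged from rare genes to genes of moderate level. Cyp4f13 was the most abundant of them, at 21.4 and 29.8 CPM in Tspan8neg MHCIIlow, 16.7 and 20.1 in Tspan8neg MHCIIhigh, 29.4 and 27.5 in Tspan8pos MHCIIhigh and 34.5 and 38.8 in Tspan8pos MHCIIlow, and Cyp4f17 was at 12.7 to 26.3 CPM. Their log2 fold changes lay between -0.66 and 0.80, the latter for Cyp4f13 between the Tspan8 levels at MHCIIhigh (adjusted p = 0.00855), which missed the limit on the fold change alone. Cyp20a1, a P450 without a known substrate, was at 7.18 to 13.8 CPM in all libraries. Cyp2e1, the ethanol-oxidising enzyme of the liver, stayed at 0.515 to 2.87 CPM, and Cyp3a11, the main Cyp3a enzyme of the mouse liver, was at 5.34 and 11.8 CPM in Tspan8pos MHCIIhigh and at most 2.29 CPM elsewhere (adjusted p = 0.0194 against Tspan8neg MHCIIhigh). These 5 were likewise named after their values were seen. A missed call does not show that the level was the same.

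The summed level of 12 enterohepatic marker genes, like the summed P450 level, was higher in Tspan8pos than in Tspan8neg cells at both MHCII levels. It was 154 and 326 CPM in Tspan8neg MHCIIlow and 708 and 916 in Tspan8neg MHCIIhigh. In Tspan8pos cells it was 5492 and 6715 CPM at MHCIIhigh and 2122 and 2387 at MHCIIlow. Reg3g gave most of this sum in the Tspan8pos libraries, at 4481 and 5460 CPM in MHCIIhigh and 1891 and 2144 in MHCIIlow cells. The 12 genes did not move together between the MHCIIhigh subsets. Reg3g, Saa1, Ttr, Hnf4a, Hnf4g and Apoa1 were higher in both Tspan8pos than in both Tspan8neg libraries. Apob, Alb, Fabp2 and Cdx2 were lower, and Apoa4 and Fabp1 overlapped. Of these 12 genes Alb was at 0 in 1 Tspan8neg MHCIIlow library and Cdx2 in 1 Tspan8pos MHCIIlow library. The summed level of 10 keratinocyte markers was 268 to 583 CPM in the Tspan8neg and 3932 to 4823 CPM in the Tspan8pos libraries, and that of 8 tuft markers was 6396 and 6529 CPM in Tspan8pos MHCIIlow against 175 to 2000 CPM elsewhere. The part of such cells in the P450 levels was not tested.

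A different set of members was highest in Tspan8neg MHCIIhigh. These included Cyp26a1, Cyp1a2 and Cyp11a1. Cyp26a1 belongs to the Cyp26 family, which inactivates retinoic acid and whose genes are themselves induced by retinoic acid receptors. The bases before its start are shown because they hold a direct repeat of the kind those receptors bind. The RefSeq sequence (GRCm38.p6, chr19:37697558-37697797, plus strand, the bases before the start) is given in lower case, with the repeated sites in capitals.
Cyp26a1: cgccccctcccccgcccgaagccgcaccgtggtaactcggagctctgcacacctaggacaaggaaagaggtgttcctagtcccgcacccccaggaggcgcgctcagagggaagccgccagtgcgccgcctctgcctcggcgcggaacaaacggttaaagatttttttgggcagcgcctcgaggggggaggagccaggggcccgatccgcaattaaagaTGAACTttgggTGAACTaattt

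The search looked for AGGTCA or AGTTCA in direct repeat with 5 bases between, on both strands, in the 250 bases before the start. The pattern was found in 1 of the 66 members with a promoter entry (Cyp26a1, 32 bases before the RefSeq start and 22 bases before the end of the printed sequence, which stops at the GENCODE start) and in 9 of 27025 promoters (0.0333%). It is a match of letters only. The other 18 members had no entry in the promoter table.

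Cyp26a1 was at 3.76 and 2.29 CPM in Tspan8neg MHCIIlow, 47 and 45.9 in Tspan8neg MHCIIhigh, 16 and 17.1 in Tspan8pos MHCIIhigh and 9.27 and 11.1 in Tspan8pos MHCIIlow. The 4 subsets did not overlap, in the order Tspan8neg MHCIIlow, Tspan8pos MHCIIlow, Tspan8pos MHCIIhigh and Tspan8neg MHCIIhigh. Between the MHCII levels of Tspan8neg cells the log2 fold change was 3.93 ± 0.28 (adjusted p = 2.42e-06), a call that held without any 1 library. Between the Tspan8 levels it rose by 1.96 ± 0.31 at MHCIIlow (adjusted p = 0.000459; 0.0142 without Tspan8pos MHCIIlow replicate 2) and fell by 1.31 ± 0.21 at MHCIIhigh (adjusted p = 0.000572; 0.0112 without Tspan8pos MHCIIhigh replicate 1). Cyp26b1 was at 0.289 and 5.6 CPM in Tspan8neg MHCIIlow and between 5.15 and 14.7 CPM in the other libraries, and was not called. Cyp26c1 had 36 counts in Tspan8neg MHCIIhigh (3.29 and 2.87 CPM), 3 in Tspan8pos MHCIIhigh and none in either MHCIIlow subset, which is at least 7.47-fold higher in MHCIIhigh than in MHCIIlow cells of the Tspan8neg gate (adjusted p = 0.00551, lost in 7 of the 8 fits without 1 library). Among 19 other genes of retinoid metabolism and transport, 7 were higher and 2 lower in Tspan8neg MHCIIhigh than in Tspan8neg MHCIIlow, with, among the former, the retinol transporter Stra6 (log2 fold change 3.05, adjusted p = 9.03e-07), Crabp1 (3.93, adjusted p = 1.12e-05) and Lrat (7.22, adjusted p = 1.5e-05). In Tspan8pos against Tspan8neg cells 10 were higher and 2 lower at MHCIIlow and 7 higher and 3 lower at MHCIIhigh. Of all tested genes, 22.7% were called between the MHCII levels of Tspan8neg cells. Between the Tspan8 levels 21.4% were called at MHCIIlow and 18.5% at MHCIIhigh.

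The Cyp1 genes are the classical targets of the aryl hydrocarbon receptor (Ahr), whose core binding site contains GCGTG. Cyp1a1 and Cyp1a2 are neighbours on chromosome 9 and Cyp1b1 lies on chromosome 17. The RefSeq bases before each start (GRCm38.p6) are shown because the 3 genes differed in direction, with the core in capitals where it occurred, as CACGC when it was read on the opposite strand. The coordinates are chr9:57697363-57697612 (plus strand) for Cyp1a1, chr9:57683704-57683905 (minus strand) for Cyp1a2 and chr17:79715062-79715311 (minus strand) for Cyp1b1, and the bases of Cyp1a2 stop at its GENCODE start.
Cyp1a1: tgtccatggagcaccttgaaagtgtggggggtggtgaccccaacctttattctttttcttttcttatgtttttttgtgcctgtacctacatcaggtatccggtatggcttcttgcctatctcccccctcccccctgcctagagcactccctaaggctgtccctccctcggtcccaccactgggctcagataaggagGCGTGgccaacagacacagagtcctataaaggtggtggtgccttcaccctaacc
Cyp1a2: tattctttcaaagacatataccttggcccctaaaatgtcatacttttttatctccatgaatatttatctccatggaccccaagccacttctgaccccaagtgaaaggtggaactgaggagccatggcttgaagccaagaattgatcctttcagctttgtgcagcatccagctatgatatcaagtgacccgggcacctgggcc
Cyp1b1: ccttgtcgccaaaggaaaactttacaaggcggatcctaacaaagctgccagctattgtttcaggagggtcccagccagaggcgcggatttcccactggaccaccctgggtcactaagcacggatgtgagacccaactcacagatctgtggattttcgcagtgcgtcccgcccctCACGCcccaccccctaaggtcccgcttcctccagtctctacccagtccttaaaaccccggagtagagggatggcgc

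The core occurred 54 bases before the start of Cyp1a1 and 76 bases before that of Cyp1b1, and was not found in the window of Cyp1a2. Among the members with an entry, 15 of 66 (22.7%) held it in the 250 bases before the start, against 28.2% of all 27025 promoters.

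Cyp1a2, which oxidises caffeine and aromatic amines in the liver, was at 0.579 and 0.255 CPM in Tspan8neg MHCIIlow, 25.9 and 32.6 in Tspan8neg MHCIIhigh and 3.31 and 2.13 in Tspan8pos MHCIIhigh, with no count in Tspan8pos MHCIIlow. Tspan8neg MHCIIhigh stood far above the rest. The ratio to Tspan8neg MHCIIlow, which had 3 counts, was 73.9 (95% counting interval 25.1 to 360; adjusted p = 1.43e-05), and that to Tspan8pos MHCIIhigh was a log2 fold change of -3.23 ± 0.37 for Tspan8pos against Tspan8neg (adjusted p = 8.1e-05). Within Tspan8pos mTECs it was at least 8.87-fold higher in MHCIIhigh cells (adjusted p = 0.00196; 0.0124 without Tspan8pos MHCIIhigh replicate 1 and 0.0751 without Tspan8pos MHCIIlow replicate 2). Cyp1a1 had the same order at a lower level, with 3.08 and 4.38 CPM in Tspan8neg MHCIIhigh, 1.1 and 0.388 in Tspan8pos MHCIIhigh and no count in the MHCIIlow subsets. It was at least 9.55-fold higher in MHCIIhigh than in MHCIIlow cells of the Tspan8neg gate (adjusted p = 0.00461), a call lost in 5 of the 8 fits without 1 library.

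Cyp1b1, which hydroxylates estradiol and occurs in many tissues outside the liver, went the other way. It was at 16.2 and 10.9 CPM in Tspan8neg MHCIIlow, 3.95 and 4.79 in Tspan8neg MHCIIhigh, 1.29 and 0.581 in Tspan8pos MHCIIhigh and 1.03 and 2.57 in Tspan8pos MHCIIlow. Tspan8neg MHCIIlow was the highest subset without overlap, and the fall of 2.51 ± 0.51 on the log2 scale to Tspan8pos MHCIIlow was called (adjusted p = 0.00235), though not without replicate 1 (adjusted p = 0.0143) or replicate 2 (0.0128) of Tspan8pos MHCIIlow. Tspan8neg MHCIIlow was also the subset with the highest sums of T and B cell markers, and the part of such cells in this result was not tested. Ahr itself was at 22.9 and 37.7 CPM in Tspan8neg MHCIIlow, 7.03 and 8.76 in Tspan8neg MHCIIhigh, 39.2 and 27.7 in Tspan8pos MHCIIhigh and 55.6 and 55 in Tspan8pos MHCIIlow. The part of the receptor in the Cyp1 levels was not tested.

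Of the steroid hormone genes, Cyp11a1, the side-chain cleavage enzyme that starts steroid synthesis, was at 2.89 and 2.8 CPM in Tspan8neg MHCIIlow, 19.1 and 23 in Tspan8neg MHCIIhigh, 9.2 and 11 in Tspan8pos MHCIIhigh and 10.3 and 5.4 in Tspan8pos MHCIIlow. Tspan8neg MHCIIhigh was highest and Tspan8neg MHCIIlow lowest without overlap (log2 fold change 2.87 ± 0.38, adjusted p = 0.000136), and the Tspan8pos subsets overlapped. Cyp17a1, the enzyme at the branch to androgens, was also highest in Tspan8neg MHCIIhigh, at 1.74 and 0.255 CPM in Tspan8neg MHCIIlow, 9.66 and 13.4 in Tspan8neg MHCIIhigh, 6.63 and 3.68 in Tspan8pos MHCIIhigh and 1.54 and 0.514 in Tspan8pos MHCIIlow. Its rise in Tspan8neg MHCIIhigh over Tspan8neg MHCIIlow was 3.55 ± 0.68 on the log2 scale (adjusted p = 0.00168; 0.0181 without Tspan8neg MHCIIhigh replicate 2). Cyp11b1, of corticosterone synthesis, was at 3.73 and 2.33 CPM in Tspan8neg MHCIIhigh and below 1 CPM in every other library, and was not called. The aldosterone synthase Cyp11b2, the aromatase Cyp19a1 and Cyp21a1 had 25, 28 and 24 counts in all and were not tested, and all 3 had their highest mean in Tspan8neg MHCIIhigh. Among 13 tested genes of steroid synthesis outside the P450s, 5 were higher and none lower in Tspan8neg MHCIIhigh than in Tspan8neg MHCIIlow, with Star, the cholesterol carrier of steroid-making cells, at 3.79 on the log2 scale (adjusted p = 0.000102). Their median log2 fold change was 0.86, against -0.04 over all tested genes, of which 22.7% were called.

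Both enzymes that act on the active form of vitamin D were seen mainly in Tspan8neg MHCIIhigh. Cyp27b1, which makes the active form, had 40 counts there (2.85 and 3.7 CPM) and 1 count in Tspan8neg MHCIIlow, a ratio of 24.9 (95% counting interval 4.22 to 1010). Cyp24a1, which breaks it down, had 45 counts there (2.64 and 4.52 CPM) and 1 in Tspan8neg MHCIIlow, a ratio of 28 (4.78 to 1130). Both were called (adjusted p = 0.00771 and 0.00768), and both calls were lost in each of the 8 fits that left out a library. Pfdn4 overlaps exons of Cyp24a1 on the opposite strand. The hydroxylase of the first step in the liver, Cyp2r1, had 10 counts in all. The receptor gene Vdr was at 40.5 and 56.3 CPM in Tspan8neg MHCIIlow and between 166 and 232 CPM in the other libraries.

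Among the sterol and bile acid genes, Cyp27a1, a mitochondrial sterol hydroxylase, was at 6.65 and 10.4 CPM in Tspan8neg MHCIIlow, 36.2 and 32.7 in Tspan8neg MHCIIhigh, 51 and 56.8 in Tspan8pos MHCIIhigh and 51.5 and 63.3 in Tspan8pos MHCIIlow. Tspan8neg MHCIIlow was lowest, Tspan8neg MHCIIhigh came next, and the Tspan8pos subsets overlapped. It was higher in Tspan8pos cells at MHCIIlow (log2 fold change 2.92 ± 0.22, adjusted p = 2.26e-06) and in MHCIIhigh cells of the Tspan8neg gate (1.99 ± 0.22, adjusted p = 4.92e-05), and both calls held without any 1 library. At MHCIIhigh the difference between Tspan8 levels was 0.82 ± 0.18 (adjusted p = 0.00415), under the limit on the fold change. The oxysterol hydroxylases Cyp7b1 and Cyp39a1 were at 5.5 to 14.9 CPM and 2.04 to 7.81 CPM and were not called. Cyp8b1, which sets the cholic acid share of bile acids, was highest in Tspan8pos MHCIIhigh with 8.65 and 5.23 CPM against 0 to 1.92 CPM elsewhere, and was not called (adjusted p = 0.0221 against Tspan8neg MHCIIhigh). Cyp46a1, the cholesterol hydroxylase of neurons, was at 3.08 and 2.74 CPM in Tspan8neg MHCIIhigh and at most 1.03 CPM elsewhere, and was not called.

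**Figure D4:**
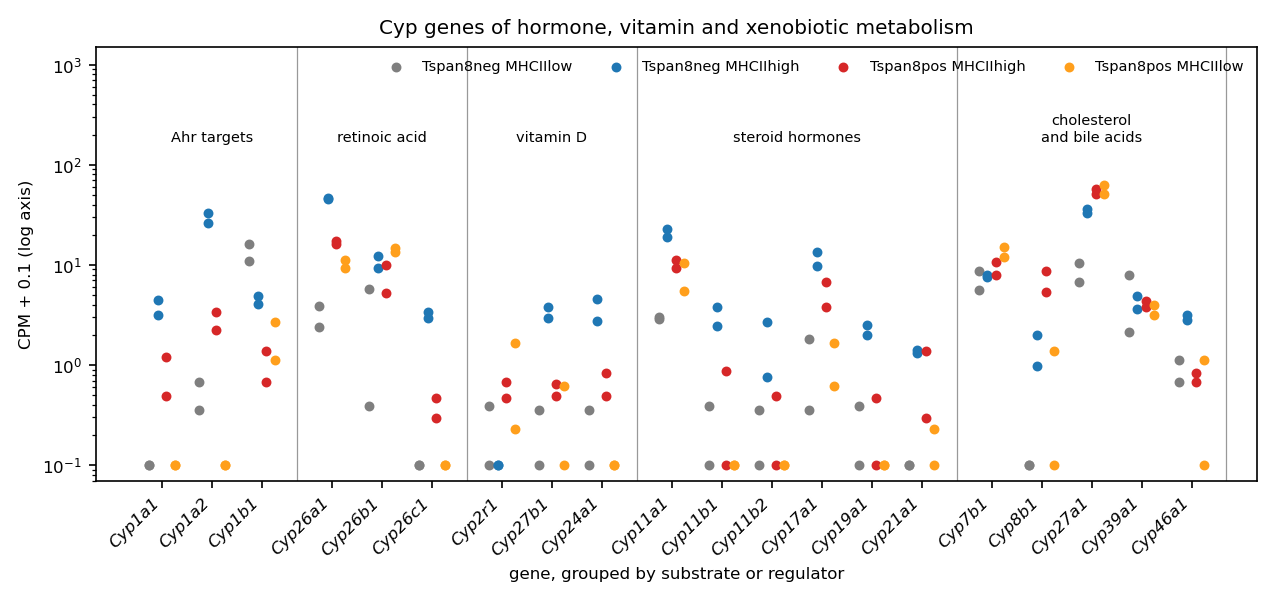
Level in CPM, on a log axis with 0.1 added to draw values of 0, of members with a role in retinoid, Ahr-inducible, steroid, vitamin D and sterol metabolism, with 1 point for each of the 8 libraries coloured by subset. Cyp26a1, Cyp1a2 and Cyp11a1 are highest in Tspan8neg MHCIIhigh, Cyp1b1 in Tspan8neg MHCIIlow, and Cyp27a1 is lowest in Tspan8neg MHCIIlow.

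The effect of Tspan8 could be compared between the MHCII levels, since these contrasts share no library. Of the 53 members, 14 were called at both levels, 13 of them higher in Tspan8pos cells at both and Cyp26a1 in opposite directions. Another 5 were called at MHCIIlow alone (Cyp1b1, Cyp27a1, Cyp2ab1, Cyp2d10 and Cyp3a57), 3 at MHCIIhigh alone (Cyp1a2, Cyp2j9 and Cyp3a13) and 31 at neither. Of all tested genes, 21.4% were called at MHCIIlow and 18.5% at MHCIIhigh. The share of them called at both levels was not determined, so these counts only describe the members. A call at a single level does not show a difference between the levels. The difference itself, tested as the interaction, was called for 3 members, or 5.66% where 4.6% of all tested genes were called, and all 3 had the higher Tspan8pos to Tspan8neg ratio at MHCIIlow. It was 3.27 ± 0.37 for Cyp26a1 (adjusted p = 0.000497), 2.10 ± 0.29 for Cyp27a1 (adjusted p = 0.00138) and 6.12 ± 1.22 for Cyp2ab1 (adjusted p = 0.00912) on the log2 scale. None of the 3 was called without Tspan8pos MHCIIlow replicate 2, and 1 without Tspan8pos MHCIIhigh replicate 1. At an unadjusted p under 0.05 the interaction held 19 members, and the share of all tested genes at that limit was not determined.

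Cyp2ab1 was the member most restricted to Tspan8pos MHCIIlow, with 7.73 and 7.32 CPM there, 0.579 and 0 in Tspan8neg MHCIIlow, 1.1 and 2.05 in Tspan8neg MHCIIhigh and 0.736 and 0.388 in Tspan8pos MHCIIhigh. Its 72 counts in Tspan8pos MHCIIlow stood against 2 in Tspan8neg MHCIIlow, a ratio of 27.3 (95% counting interval 7.3 to 230; adjusted p = 0.0013), and it was lower in MHCIIhigh cells of the Tspan8pos gate (log2 fold change -3.67 ± 0.74, adjusted p = 0.00616). The first of these calls was lost without Tspan8pos MHCIIlow replicate 2 (adjusted p = 0.019), and its log2 fold change ran from 3.77 to 8.35 over the fits that left out a library. The second call and the interaction were each lost in 6 of the 8 fits that left out a library (adjusted p up to 0.0814 and 0.0691). The 8 tuft markers were likewise highest in this subset, and their part in this result was not tested.

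**Figure D5:**
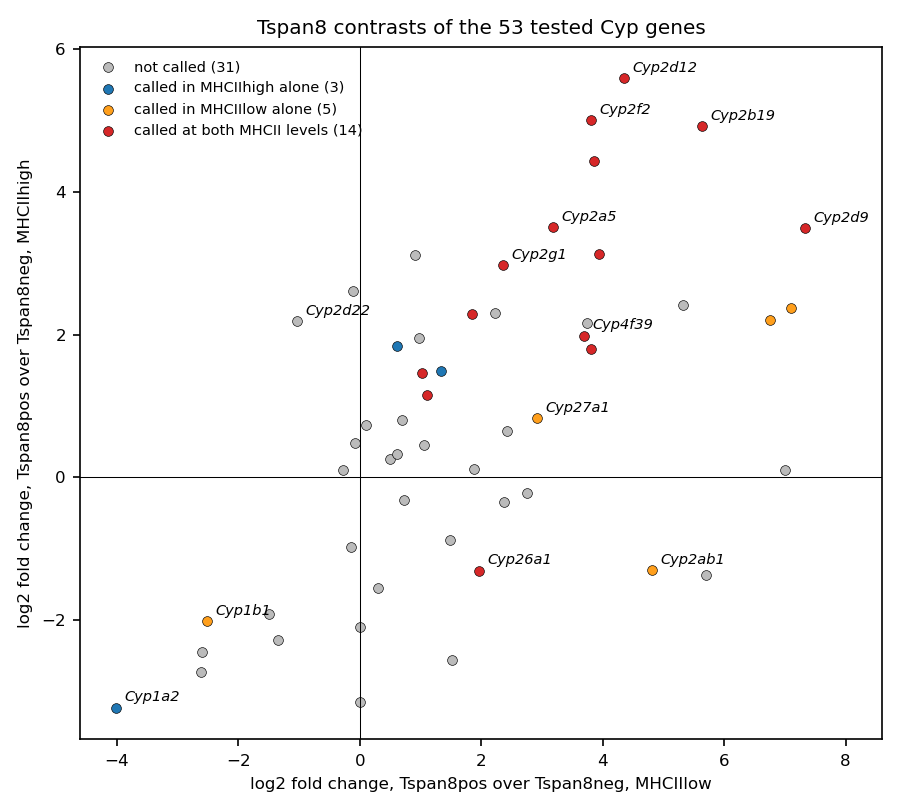
Log2 fold change of Tspan8pos against Tspan8neg mTECs (edgeR) at MHCIIlow (x axis) and at MHCIIhigh (y axis), with 1 point for each of the 53 tested members, marked by where it was called. Points of members called at both levels lie in the upper right, except Cyp26a1, which is positive on the x axis and negative on the y axis.

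Por, which passes electrons to the P450 enzymes of the endoplasmic reticulum, was higher in Tspan8pos cells at both MHCII levels. Of 9 electron donors, 2 were higher in Tspan8pos cells at MHCIIlow, where 21.4% of all tested genes were called, and 1 at MHCIIhigh, where 18.5% were, and none was called between the MHCII levels. Por was at 91.4 and 75.3 CPM in Tspan8neg MHCIIlow, 62.6 and 54.1 in Tspan8neg MHCIIhigh, 166 and 188 in Tspan8pos MHCIIhigh and 197 and 179 in Tspan8pos MHCIIlow, so that every Tspan8pos library lay above every Tspan8neg library (log2 fold change 1.33 and 1.78, adjusted p = 6.82e-05 and 8.73e-06). Of 13 genes of heme synthesis and breakdown 2 were higher in Tspan8pos cells at MHCIIlow, where 21.4% of all tested genes were called. None was called at MHCIIhigh, and 2 were higher in Tspan8neg MHCIIhigh than in Tspan8neg MHCIIlow, where 22.7% of all tested genes were called. Both times these were Alas1, which sets the rate of heme synthesis in most cells (log2 fold change 1.31 and 1.84), and Alas2, its erythroid counterpart. Alas1 alone was also higher in MHCIIhigh cells of the Tspan8pos gate (log2 fold change 1.32, adjusted p = 4.94e-05). The sum of 5 erythroid markers that include Alas2 lay between 30 and 110 CPM. Alas2 was at 1.74 and 2.55 CPM in Tspan8neg MHCIIlow and 15.6 and 18.5 in Tspan8neg MHCIIhigh. The other markers of this sum, all globin genes, were instead lower in both Tspan8neg MHCIIhigh libraries than in both Tspan8neg MHCIIlow libraries. The part of erythroid cells in the Alas2 level was not tested. Cyp51, which demethylates lanosterol in cholesterol synthesis and whose symbol lies outside the naming pattern, was called in none of the contrasts.

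Of 43 other genes of detoxification, which include conjugating enzymes, epoxide hydrolases, carboxylesterases, flavin-containing monooxygenases and efflux pumps, 19 were higher and 3 lower in Tspan8pos cells at MHCIIlow, with a median log2 fold change of 1.42, and 19 higher and 1 lower at MHCIIhigh, with a median of 0.98. Gsta4 and Gsto1, both glutathione transferases, and the epoxide hydrolase Ephx3 had log2 fold changes of 3.65 to 4.86 in these contrasts. Between the MHCII levels, 16 were higher and 2 lower in Tspan8neg MHCIIhigh, and 14 were higher and none lower in Tspan8pos MHCIIhigh cells. For this list and those below, 21.4% of all tested genes were called for Tspan8 at MHCIIlow and 18.5% at MHCIIhigh. For MHCII the share was 22.7% in Tspan8neg and 7.21% in Tspan8pos cells. Of 16 enzymes of arachidonic acid metabolism outside the P450s, 10 were higher and none lower in Tspan8pos cells at MHCIIlow and 9 higher and 1 lower at MHCIIhigh, with medians of 2.05 and 1.53. Aloxe3 and Alox12b stand in this list and in that of skin barrier lipids. Of 21 receptors and factors known to control P450 genes, 8 were higher in Tspan8pos cells at each MHCII level, among them Cebpa (log2 fold change 1.57 and 2.12) and Rxra (1.30 and 1.49), the partner of the retinoic acid, vitamin D and xenobiotic receptors. None of the 21 was lower at MHCIIlow, and 2 were lower at MHCIIhigh. In the Tspan8neg gate, 4 of them were higher and 2 lower in MHCIIhigh cells, with Vdr among the former and Ahr among the latter.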

How the data were processed

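RNA-seq of sorted mTECs was analysed for 8 libraries, 2 per subset, grouped by the subset and replicate number in the sample titles. The authors deposited a table of estimated counts per gene, made with Salmon and stored as whole numbers without normalization. Per the labels and the methods, 54-base single-end reads were assigned to the Gencode vM10 transcriptome with Salmon 1.8.0. The paper describes cDNA pre-amplification with tagmentation, the labels a strand-specific kit. Symbols, coordinates and clusters (gaps up to 500 kb) came from a later GENCODE release on GRCm38, and 99.49% of identifiers matched.

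Counts were tested in R 4.3.3 with edgeR 4.0.16 (quasi-likelihood, TMM, filterByExpr, a mean per subset over all 8 libraries), adjusted by Benjamini-Hochberg over 17006 genes. SEs are the size of the log2 fold change over the root of the F statistic. Levels are CPM of the library total. Lower bounds use 3 counts over the group, and ratios with 1 to 3 counts an exact interval, for counting error only, since amplified reads are not independent molecules. Members named were those called with a mean of at least 5 CPM, the 3 highest per kb in each subset, those called in the interaction and those of fixed role lists. The members and lists were chosen with earlier results of these data known. Shared windows are stretches of 54 bases found in exons of other genes. Alternatives were DESeq2 1.42.0 (test and size factors), other filters, thresholds and samples, a replicate block, thinning and leaving out each library. Scripts were tested on simulated data.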

Additional observations from a re-analysis of the deposited data

Results flagged for a closer look

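How the Tspan8 effect differed between MHCIIlow and MHCIIhigh mTECs was tested as an interaction in the edgeR fit. The interaction was called for 3 of the 53 tested P450 members (5.66%), a share near that of all tested genes given below. For Cyp26a1 the log2 fold change of Tspan8pos against Tspan8neg was higher in MHCIIlow than in MHCIIhigh mTECs by 3.27 (adjusted p = 0.000497), with a rise at MHCIIlow and a fall at MHCIIhigh. For Cyp27a1 the difference was 2.10 (adjusted p = 0.00138), with a log2 fold change of 2.92 at MHCIIlow and of 0.82 at MHCIIhigh, where the gene was not called. For Cyp2ab1 it was 6.12 (adjusted p = 0.00912) and rests on 2 counts in Tspan8neg MHCIIlow. Without Tspan8pos MHCIIlow replicate 2 none of the 3 passed the limit, with an adjusted p of 0.0106 for Cyp26a1 and 0.0166 for Cyp27a1, and for Cyp2ab1 6 of the 8 fits without 1 library missed it, with an adjusted p of up to 0.0691. Over all tested genes 4.6% were called in this comparison.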

How the results depend on the processing

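The reads are not known to be stranded, and counts of close relatives such as Cyp2a5 and Cyp2a4 may be split. With 2 libraries per subset, counts of called P450 members moved with single libraries. No called log2 fold change changed sign in an alternative. Of 165 pairs of a named member and a contrast, 56 were called, 23 of these in every alternative, while 33 lost the call in at least 1, of which 15 lost it through a left-out library alone. Of the 109 that were not called, 20 were called in an alternative.

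The deviations of same-numbered libraries correlated at 0.00402 to 0.0924, so the numbers were not taken to pair them. With the replicate block 21, 20, 18 and 7 members were called in the 4 contrasts (19, 17, 19 and 6 without it) and 5 in the interaction (3 without it), where 6 subfamilies were called (3 without it). Without a filter on low counts the interaction had 5 members and 6 subfamilies.

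In fits to the 4 libraries of a contrast, 12 members and 9 subfamilies were called for Tspan8 at MHCIIlow (main 19 and 14), 30 and 19 at MHCIIhigh (main 17 and 11), and 12 and 9 for MHCII in Tspan8pos mTECs (main 6 and 6). At an adjusted p under 0.05 these were 30 and 18 for Tspan8 at MHCIIhigh, 29 members for MHCII in Tspan8neg, 11 members for MHCII in Tspan8pos mTECs, and 7 and 7 in the interaction. Leaving out 1 library gave 12 to 22 members and 10 to 15 subfamilies for Tspan8 at MHCIIlow, 11 to 25 and 9 to 13 at MHCIIhigh, 7 to 17 and 5 to 11 for MHCII in Tspan8neg, 0 to 11 and 0 to 9 in Tspan8pos mTECs, and 0 to 4 and 0 to 4 in the interaction. The cause of these shifts was not tested. The mean summed level of Tspan8pos MHCIIhigh was 4989 with DESeq2's size factors and 5006 with TMM library sizes.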
